A study of Mus musculus with 16 samples.

Results

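The granule genes described here are 10 of the 27998 genes in the count matrices, chosen by symbol: the primary (azurophil) granule genes Mpo, Elane, Prtn3, Ctsg and Prss57, and the secondary (specific) granule genes Camp, Ngp, Ltf, Lcn2 and Fcnb. Each symbol matched 1 gene in all 8 matrices. The cells were lineage-depleted (Lin-) bone marrow cells of C57BL/6 mice, profiled by droplet single-cell RNA sequencing with hashtag antibodies that mark the mouse of origin. There were 4 groups of 4 mice, and each of the 8 libraries pooled 2 mice of a group. WT mice carried Tet2 fl/fl without Cre, and Tet2-KO mice carried Vav-Cre with Tet2 fl/fl, so that the Vav promoter drove Cre in blood cells in general and the Cre transgene cannot be told apart from the loss of Tet2. In both genotypes 1 group received vehicle and 1 received IL1b, an inflammatory cytokine, at 500 ng per mouse per day, for 5 weeks, and the labels gave an age of 6 to 12 weeks for all groups.

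A neutrophil forms its granules in order as it matures in the marrow. Primary granules are loaded at the promyelocyte stage with myeloperoxidase and serine proteases, and secondary granules are loaded at the myelocyte and metamyelocyte stages with iron-binding, antimicrobial and matrix-acting proteins. The order is set largely by when each gene is transcribed, with C/EBP factors, PU.1, RUNX1 and GFI1 known to act on these genes, and C/EBP epsilon (Cebpe) known to be needed for the secondary set. Granule genes therefore serve as a clock of neutrophil maturation.

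Of 121405 barcodes, 94917 cells had at least 750 genes and at most 10% mitochondrial UMIs (unique molecular identifiers, 1 per counted transcript), and 57896 of these were assigned to 1 of the 16 mice by hashtag. The hashtags separated the mice of a pool unevenly. In assigned cells the median ratio of the assigned tag to the other was 5.24 to 9.12 in the 4 pools of mice 3 and 4 but 0.779 to 2.49 in the 4 pools of mice 1 and 2, and a rule asking for a tag at least 3 times the other gave the same mouse to 77.4% to 97.3% and to 15.9% to 41.8% of assigned cells. Values of mice 1 and 2 of a group may therefore hold cells of both, and p-values that take them as separate mice may be too small. Calls of members between groups are therefore also given with each pool as 1 replicate. Libraries held 56010493 to 99197115 UMIs, mice 698 to 6432 assigned cells and 4388604 to 44152768 UMIs, and pairs of libraries shared 11 to 57 barcodes, at most 0.512% of the smaller library. Tet2 itself was counted at 31.0 to 46.9 CPM (UMIs scaled to a fixed total per mouse) in the WT mice and 36.4 to 46.2 in the Tet2-KO mice with vehicle, and at 53.4 to 61.7 and 59.1 to 77.9 with IL1b. These tags read the end of the transcript, and no source used here places that end in the deleted part, so the level does not check the genotype.

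Cells were placed along the path to the neutrophil by genes other than the 10, in 6 gates whose short names stand for the rule. The HSC gate held cells with Hlf and without Flt3, Ms4a3 or Cebpe, the MPP gate cells with Flt3 and Cd34, the MyP gate cells with Cebpa and Cd34, the GP gate cells with Ms4a3 and without Cebpe, the CebpeG gate cells with Cebpe, and the Neut gate cells with at least 2 of the 7 genes Ly6g, Cd177, Mmp8, Itgb2l, Retnlg, Cxcr2 and Mmp9. A set of neutrophil genes kept cells out of the earlier gates, and the gates held 1852, 340, 186, 4506, 7026 and 2019 cells. A mouse entered a gate with at least 10 cells, which left 16, 11, 9, 16, 16 and 15 mice. Median UMIs per cell ranged over mice from 2150 to 4119 in the HSC gate, from 4599 to 9922 in the CebpeG gate and from 3182 to 7313 in the Neut gate. All 7 markers listed for the HSC gate, all 7 for the CebpeG gate and all 10 for the Neut gate had UMIs in each group. In the HSC gate a megakaryocyte list led by Pf4 summed to 623.5 to 12264 CPM over the WT mice with vehicle, against 698.7 to 976.2 for the HSC list, so this gate also held RNA of another lineage.

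Promoter windows of 1 primary and 2 secondary members, those that overlap annotated exons least, are shown for the letters that known granulocyte factors bind. Windows of 250 bases before the start were taken from RefSeq (GRCm38.p6), which held 9 of the 10 genes and none for Prss57. The letters searched on both strands were TTGCNNAA for a C/EBP core, GAGGAA for a PU.1 core and TGTGGT for a RUNX core, which do not overlap each other in these windows. The 3 windows below overlap annotated exons by 0 (Ctsg), 21 (Ltf) and 7 bases (Fcnb), and the 6 windows not shown by 53 (Prtn3) to 203 bases (Mpo). Ctsg, which encodes cathepsin G, lies at chr14:56102575-56102824 on the minus strand, Ltf, which encodes lactoferrin, at chr9:111019042-111019291 on the plus strand, and Fcnb, which encodes the lectin ficolin B, at chr2:28084879-28085128 on the minus strand. The capitals mark a match on either strand, and each window reads 5′ to 3′ toward its gene.
Ctsg: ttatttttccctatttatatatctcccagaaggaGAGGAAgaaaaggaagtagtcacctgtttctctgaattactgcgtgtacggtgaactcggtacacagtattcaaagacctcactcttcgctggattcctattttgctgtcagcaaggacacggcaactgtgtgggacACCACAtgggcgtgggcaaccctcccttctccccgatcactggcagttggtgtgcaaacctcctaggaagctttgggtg
Ltf: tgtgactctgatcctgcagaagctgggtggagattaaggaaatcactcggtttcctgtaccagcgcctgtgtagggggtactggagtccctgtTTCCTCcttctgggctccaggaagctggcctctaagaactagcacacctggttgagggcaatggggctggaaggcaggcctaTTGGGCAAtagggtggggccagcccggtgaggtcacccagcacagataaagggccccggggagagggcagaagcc
Fcnb: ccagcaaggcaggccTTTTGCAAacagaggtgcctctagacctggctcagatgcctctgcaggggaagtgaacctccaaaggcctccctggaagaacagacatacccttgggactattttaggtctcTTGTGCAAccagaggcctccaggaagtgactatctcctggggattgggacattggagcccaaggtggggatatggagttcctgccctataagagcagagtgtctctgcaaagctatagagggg
The Ctsg window held a PU.1 core 216 bases and a RUNX core 79 bases before the start. The Ltf window held a PU.1 core at 157 bases and a C/EBP core at 75, and the Fcnb window held C/EBP cores at 235 and 123 bases. Over all members, the C/EBP core was found in 4 of 5 secondary windows (all but Camp) and 0 of 4 primary windows, against 9.56% of 32851 RefSeq promoters. The PU.1 core was found in 4 of 4 primary windows and 2 of 5 secondary windows, against 23.3% of promoters, and the RUNX core in 1 of 4 and 0 of 5, against 4614 of 32851. These are matches of letters, and no binding was measured.

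The members also cluster on the chromosomes (GRCm38, GENCODE). Prss57, Prtn3 and Elane lie within 106.7 kb at chr10:79781474-79888215, and Camp, Ngp and Ltf within 1195.4 kb at chr9:109847379-111042767. Mpo lies at chr11:87793581-87804413, Ctsg at chr14:56099881-56102574, and Fcnb and Lcn2 lie 4311.9 kb across on chromosome 2.

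The primary genes were already read in the HSC gate, climbed to the CebpeG gate and were lower again in the Neut gate. Levels below are CPM on a scale shared by the 6 gates, as mean ± SD over mice, and these tags count transcripts without regard to gene length. Mpo, the peroxidase that makes hypochlorous acid, averaged 393.2 ± 122.1 CPM in the HSC gate (n = 16), 1144 ± 222.6 in the MPP gate (n = 11), 1812 ± 226.2 in the MyP gate (n = 9), 6726 ± 789.7 in the GP gate (n = 16), 9223 ± 793.2 in the CebpeG gate (n = 16) and 3256 ± 1177 in the Neut gate (n = 15). Prtn3, proteinase 3, ran close to it, at 410.7 ± 109.1, 787.5 ± 192.4, 1073 ± 294.0, 6338 ± 1564, 10044 ± 2724 and 3717 ± 1657 CPM. Elane, neutrophil elastase, started lower than both and reached their level at the GP gate: it averaged 107.4 ± 73.4, 142.9 ± 108.0, 245.8 ± 152.0, 5895 ± 1211, 9407 ± 1933 and 3378 ± 1042 CPM.

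Ctsg kept the same shape at a lower level, with 113.6 ± 48.3 CPM in the HSC gate, 4359 ± 1394 in the CebpeG gate and 1244 ± 567.5 in the Neut gate. Prss57, a serine protease of the same granule, was the lowest of the 5, at 17.6 ± 10.7, 426.9 ± 36.7 and 187.4 ± 66.3 CPM in the same gates. In the CebpeG gate Mpo, Elane and Prtn3 overlapped in their ranges over mice (7882 to 10373, 6537 to 14008 and 5847 to 13807 CPM), so these 3 had no clear order. Ctsg (2091 to 6540 CPM) overlapped Prtn3 and, by its highest mouse, Elane, and Prss57 (356.1 to 490.3 CPM) stood below the other 4 without overlap.

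The secondary genes were scarce in every gate up to CebpeG and dominated the Neut gate. Camp, the precursor of the antimicrobial peptide cathelicidin, averaged 304.2 ± 764.7 CPM in the GP gate, 911.5 ± 1001 in the CebpeG gate and 37693 ± 17896 in the Neut gate. Without WT vehicle mouse 2, at 3141 CPM, the GP mean of Camp was 115.1 ± 115.3 and that of Ngp 47.4 ± 40.1. Ngp, a granule protein of the cystatin fold, averaged 88.5 ± 168.8, 462.1 ± 370.7 and 29430 ± 9893 CPM. Ltf averaged 10.7 ± 10.7, 62.0 ± 42.4 and 7725 ± 2802 CPM. Lcn2, the lipocalin that binds bacterial siderophores, averaged 57.0 ± 42.0, 157.7 ± 80.7 and 9812 ± 3563 CPM. Fcnb took a flatter course than the other 4, at 62.9 ± 30.8, 164.6 ± 63.8 and 666.8 ± 197.1 CPM.

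In the HSC, MPP and MyP gates the mean of each secondary gene was at most 46.6 CPM, and that of Camp in the HSC gate rested on 1 mouse at 456.5 CPM beside a median of 19.5. Without that mouse, WT vehicle mouse 4, the HSC mean was 19.3 for Camp and 18.3 for Ngp, and without WT IL1b mouse 4 that of Fcnb was 1.88 instead of 3.47. In the Neut gate the ranges of Camp (7988 to 67711 CPM) and Ngp (8127 to 41572) overlapped, as did those of Ltf (2591 to 12300) and Lcn2 (2413 to 14588), while Fcnb (177.3 to 933.9) lay below them.

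**Figure D1:**
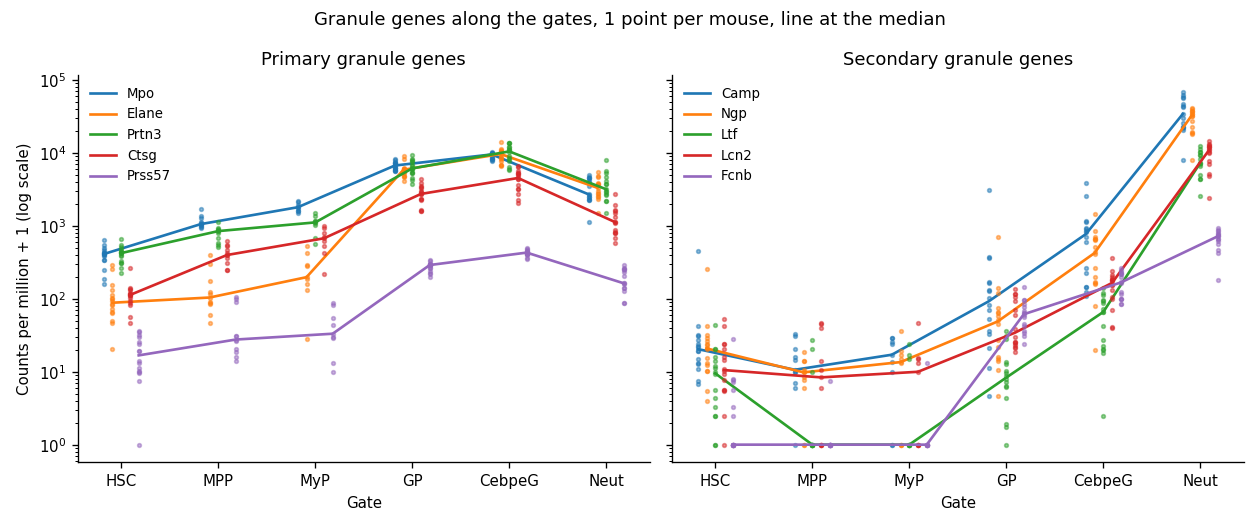
Level of each granule gene (CPM + 1, log scale, y axis) along the 6 gates (x axis), with 1 point per mouse and a line through the medians, for the primary (left) and secondary (right) genes. The primary genes peak in the CebpeG gate, where Mpo averages 9223 CPM, and the medians of the secondary genes other than Fcnb stand above those of the primary genes in the Neut gate, where all 4 exceed each primary gene in 12 of 15 mice.

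Neighbouring gates were then compared within mice by edgeR over 8397 genes, with the Benjamini-Hochberg adjusted p. From the HSC to the MPP gate, 4 of 10 members rose, while 2.47% of all genes rose: Mpo by 1.52 ± 0.12 on the log2 scale (SE, adjusted p = 1.4e-18, higher in 11 of 11 mice), Ctsg by 1.85 ± 0.17, Prtn3 by 0.93 ± 0.13 and Prss57 by 0.99 ± 0.32 (adjusted p = 0.045). All 4 were primary, and Elane gave 0.54 ± 0.28 without passing (adjusted p = 0.31). Within the MPP gate alone, 0 of 5 secondary genes passed the filter on low counts. Their log2 changes in this step had SEs of 0.87 (Lcn2) to 1.76 (Fcnb). The step therefore cannot show whether the rise was limited to primary genes. Prss57 was higher in 7 of 11 mice and lost its call in 12 of 27 alternatives. From the MPP to the MyP gate Mpo was the only member called, rising by 0.71 ± 0.14 (adjusted p = 0.0030, 9 of 9 mice), where 0.0357% of all genes rose. This call was lost in 3 of 27 alternatives. Within the MyP gate alone, too, 0 of 5 secondary genes passed the filter. Their changes in this step had SEs of 1.40 (Lcn2) to 2.90 (Fcnb), so it cannot decide whether they moved.

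From the MyP to the GP gate the primary genes all rose. In this step 7 members rose against 11.8% of all genes, and the median over all genes was 0.15. The GP gate is set by Ms4a3, which correlated with the primary mean at 0.941. The gate rule thus favours the rise of the primary genes, and its part in it was not tested. Elane led the primary genes with 4.60 ± 0.22 (adjusted p = 5.9e-33), followed by Prss57 (2.66 ± 0.25), Prtn3 (2.53 ± 0.14), Ctsg (2.13 ± 0.15) and Mpo (1.84 ± 0.12), each higher in 9 of 9 mice. Of the secondary genes, Fcnb rose by 5.30 ± 0.97 (adjusted p = 1.2e-05) from a MyP gate in which 1 mouse had any UMI, so that its size depends on the prior count of the fit, and the call was lost with a minimum of 25 cells. Camp rose by 3.51 ± 1.09 (adjusted p = 0.017, 7 of 9 mice) and lost this call in 6 of 27 alternatives. The values of Lcn2, Ngp and Ltf (2.38 ± 0.90, 2.47 ± 1.19 and 1.04 ± 1.52) did not pass. With secondary genes this scarce in the MyP gate, that does not show that these genes stayed level.

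From the GP to the CebpeG gate all 10 members rose, where 21.0% of all genes rose. The primary genes rose by 0.46 (Mpo) to 0.68 (Elane) and the secondary genes by 1.41 (Lcn2) to 2.70 (Ngp), each in 16 of 16 mice but for Camp in 15 of 16. The secondary UMIs of the CebpeG gate were concentrated, since 2 to 25 cells per mouse, of 109 to 1077, held as many as all its other cells together. The calls of Mpo and Elane were lost with gates after thinning, and the other 8 were kept in all 27 alternatives. The sets then parted from the CebpeG to the Neut gate: 5 members rose against 33.2% of all genes, all of them secondary, and 5 fell against 35.5%, all of them primary. The Neut gate is set by neutrophil genes, of which Cd177 correlated with the secondary mean at 0.961. A set of neutrophil genes also kept cells out of the earlier gates. The gate rules thus favour this difference, and their part in it was not tested. Ltf rose by 7.01 ± 0.17 (adjusted p = 7.7e-59), Ngp by 6.14 ± 0.24, Lcn2 by 5.94 ± 0.16, Camp by 5.74 ± 0.27 and Fcnb by 1.99 ± 0.08, all in 15 of 15 mice. All 5 primary genes fell, with log2 changes of -1.75 ± 0.10 (Ctsg), -1.55 ± 0.09 (Mpo), -1.502 ± 0.12 (Elane), -1.44 ± 0.09 (Prtn3) and -1.18 ± 0.08 (Prss57), and none was higher in the Neut gate in any of 15 mice. Median log2 changes were 5.94 for the secondary and -1.502 for the primary genes, against -0.04 over all genes.

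Put as a share of all transcripts, the primary genes took 0.123% of UMIs in the HSC gate, 2.15% in the GP gate, 2.98% in the CebpeG gate and 0.856% in the Neut gate. The secondary genes took 0.0127%, 0.0489%, 0.156% and 5.90%, but 0.00726% in the HSC gate without WT vehicle mouse 4 and 0.0277% in the GP gate without WT vehicle mouse 2. The log2 ratio of summed secondary to summed primary CPM, with 1 CPM added to each sum, was -3.97 ± 1.32 in the HSC gate, -6.08 ± 0.80 in MPP, -7.03 ± 1.94 in MyP, -6.29 ± 1.34 in GP, -4.67 ± 1.26 in CebpeG and 2.81 ± 1.07 in Neut (mean ± SD over mice). The MyP value includes Tet2-KO vehicle mouse 3, whose secondary genes were at 0 there and whose ratio is set by the added 1 CPM, and without it the MyP mean was -6.45 ± 0.87. The ratio was below 0 in each mouse in the 5 earlier gates and above 0 in each of the 15 mice in the Neut gate. In the Neut gate it averaged 3.88 ± 0.62 in WT mice with vehicle, 2.09 ± 1.15 with IL1b (n = 4 each), 2.79 ± 1.16 in Tet2-KO mice with vehicle (n = 3) and 2.50 ± 0.65 with IL1b (n = 4).

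**Figure D2:**
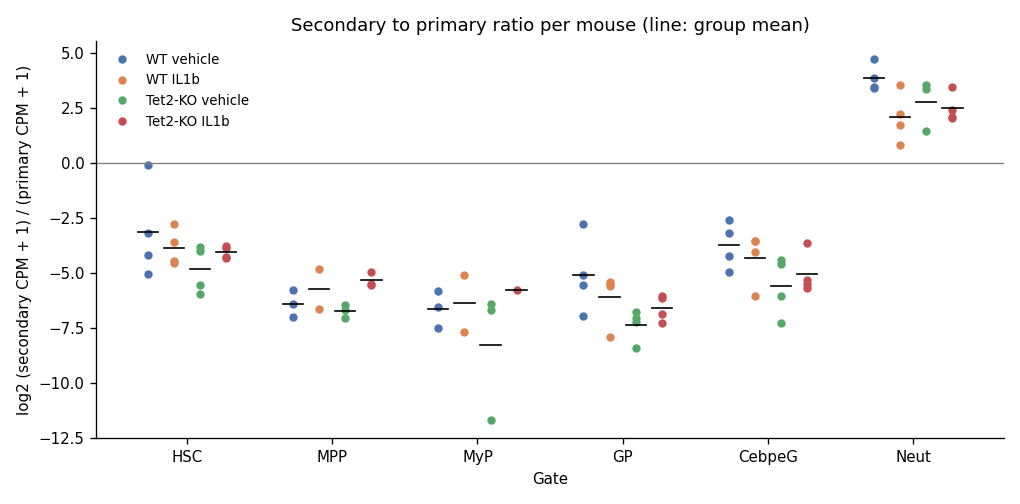
The log2 ratio of summed secondary to summed primary CPM, with 1 CPM added to each sum (y axis), in each gate (x axis), with 1 point per mouse coloured by group and a line at each group mean. Every mouse lies below 0 up to the CebpeG gate and above 0 in the Neut gate, where the means run from 2.09 (WT IL1b) to 3.88 (WT vehicle).

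Single cells showed the same difference between the gates. Cells with more secondary than primary UMIs made up 1.34% ± 1.71 of the GP gate, 2.75% ± 2.31 of the CebpeG gate and 80.1% ± 9.17 of the Neut gate (mean ± SD over mice). UMIs of both sets were found together in 61.4% of CebpeG cells and 76.1% of Neut cells. In an erythroid reference gate (Klf1, Gata1 and Car1), whose cells should lack granule proteins and were deeper, both sets were found in 27.5% ± 11.7 of cells. More secondary than primary UMIs were found in 7.23% ± 7.14 of its cells. Few UMIs per cell decide this last share there, while the primary genes took 2.15% of UMIs in the GP gate and 2.98% in the CebpeG gate. It is therefore no background for these gates. With each cell thinned to 3000 UMIs and shallower cells left out, Mpo was read in 54.2% of HSC-gate, 91.8% of GP-gate, 99.1% of CebpeG-gate and 52.2% of Neut-gate cells, and unthinned in 51.4%, 89.4%, 98.8% and 53.1%. Thinning kept 740 of 1852, 3883 of 4506, 6825 of 7026 and 1377 of 2019 cells of these gates.

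Free RNA in the droplets can set a floor under such shares, though the reference cells do not tell it apart from doublets or expression. In the erythroid reference gate, with 2840 of 2874 cells kept and medians of 9148 to 15390 UMIs per cell, the thinned shares were 19.1% for Mpo, 12.96% for Prtn3, 9.66% for Elane, 6.50% for Ctsg and 0.768% for Prss57. The same reference gave 3.73% for Camp, 2.54% for Ngp, 1.43% for Ltf, 1.39% for Lcn2 and 0.388% for Fcnb, and unthinned 51.5% for Mpo and 13.9% for Camp. Against the thinned reference, the HSC gate stood higher for Mpo (54.2%) and Prtn3 (59.0%), while Camp there was read in 4.97% of cells. Unthinned, Mpo was read in 51.4% of HSC-gate and 51.5% of reference cells, Elane in 24.3% and 31.2%, and Prtn3 in 63.5% and 37.3%. Thinning takes more UMIs from the deeper reference cells, so its thinned shares may be too low a floor for the HSC gate. Whether Mpo there exceeded free RNA was not tested. In the CebpeG gate Camp was read in 10.54%, Lcn2 in 14.6%, Fcnb in 22.3% and Ltf in 2.70% of thinned cells, and in the Neut gate Lcn2 in 87.2%, Camp in 82.2% and Fcnb in 54.2%.

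With IL1b, 3 of the 5 primary genes were lower in the CebpeG gate in both genotypes. Levels from here on are CPM within a gate. Whether groups overlap is given here and below as a description, since the share of all genes without overlap was not counted. Of the 13 calls between groups reported below, 5 were kept with each pool as 1 replicate: Ctsg in the CebpeG gate, Camp in the HSC, GP and Neut gates and Lcn2 in the Neut gate, all in WT mice. With mice 3 and 4 alone, where each group is 1 library so that its spread leaves out differences between libraries, 12 were kept, all but Camp in the GP gate (adjusted p = 0.373). All 13 kept their direction in both. Elane stood at 8731, 8911, 9223 and 9242 CPM in the WT mice with vehicle and at 6280, 6339, 5855 and 6997 with IL1b. In Tet2-KO mice it stood at 9672, 9782, 12412 and 10045 with vehicle and at 7452, 7875, 8045 and 8700 with IL1b. The groups did not overlap in either genotype, and Elane fell by 0.50 ± 0.08 on the log2 scale in WT (adjusted p = 0.00023), against 0.39 ± 0.08 in the Tet2-KO genotype (adjusted p = 0.0013).

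Ctsg fell furthest. It stood at 5026, 4756, 4244 and 4565 CPM in WT mice with vehicle and at 3269, 2883, 1873 and 2059 with IL1b. In Tet2-KO mice it stood at 4556, 4756, 5716 and 5803 with vehicle and at 2894, 2459, 3984 and 3938 with IL1b. Each mouse with IL1b was below each vehicle mouse of its genotype, a fall of 0.88 ± 0.15 in WT (adjusted p = 0.00038) and 0.65 ± 0.15 in Tet2-KO mice (adjusted p = 0.0029).

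Prtn3 moved the same way without overlap of the groups. Its levels were 10824, 9864, 9230 and 8270 CPM in WT mice with vehicle and 7513, 7104, 5430 and 5277 with IL1b, and 12481, 12401, 12168 and 10684 against 7750, 5763, 10170 and 9820 in Tet2-KO mice. It fell by 0.59 ± 0.14 in WT (adjusted p = 0.0036), against 0.51 ± 0.14 in the Tet2-KO genotype (adjusted p = 0.0075).

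Mpo and Prss57 did not pass. Mpo ranged from 7411 to 8923 CPM in WT mice with vehicle and from 7156 to 7769 with IL1b (log2 change -0.18 ± 0.07, adjusted p = 0.078), and gave -0.06 ± 0.07 in Tet2-KO mice. Prss57 gave -0.06 ± 0.10 and -0.03 ± 0.10. So 3 of 10 members fell in the CebpeG gate in WT mice, where 13.5% of all 9623 genes fell, and 3 of 10 in Tet2-KO mice, where 16.7% fell, and in each genotype the 3 were Elane, Prtn3 and Ctsg. All 6 calls held when any 1 of the 16 mice was left out. With the pools of 2 mice as the replicates (2 against 2), Ctsg in WT kept its call (adjusted p = 0.0494) and the other 5 did not (adjusted p = 0.053 to 0.109), with the same directions. Prtn3 in Tet2-KO mice also lost its call under a hashtag ratio rule and with no exclusion of other lineages.

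**Figure D3:**
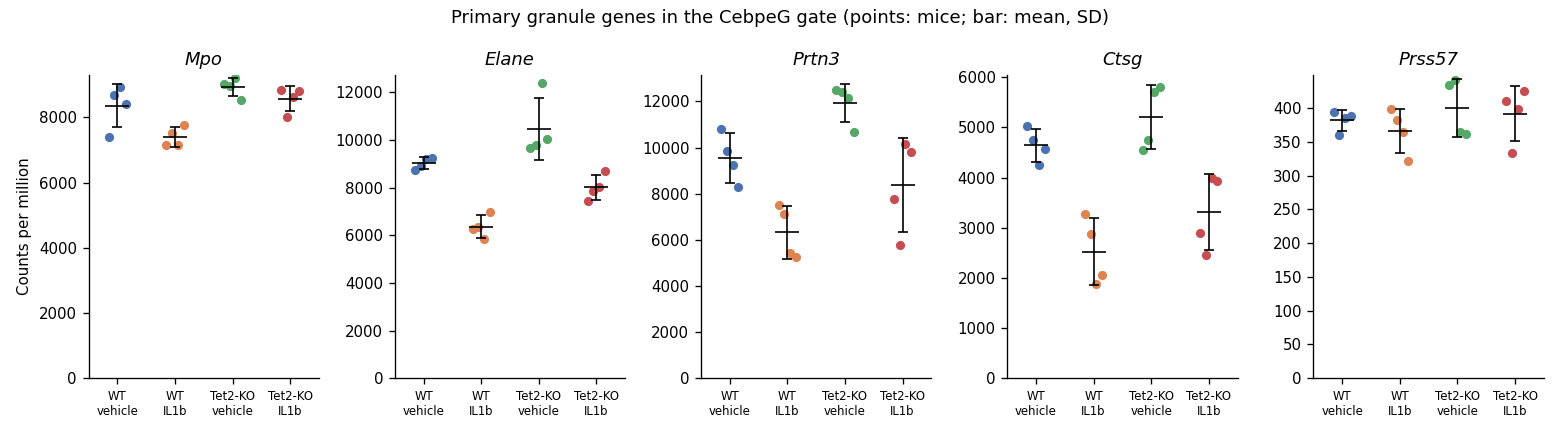
Level of the 5 primary genes (CPM, y axis from 0) in the CebpeG gate in the 4 groups (x axis), with 1 point per mouse and bars for the mean and SD (n = 4). Elane, Prtn3 and Ctsg are lower in each IL1b mouse than in each vehicle mouse of the same genotype, and Mpo and Prss57 overlap.

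Marker lists were read in the same gate. The summed CebpeG list ran from 1157 to 1665 CPM in WT mice with vehicle and from 1025 to 1428 with IL1b, and from 987.2 to 1655 and 1445 to 1771 in Tet2-KO mice, and all 7 of its genes had UMIs in each group. The monocyte list, of 6 genes led by F13a1, summed to 53.8 to 69.0 CPM in WT mice with vehicle and 96.7 to 122.2 with IL1b, and to 79.0 to 96.6 and 84.3 to 130.4 in Tet2-KO mice, and its part in the results was not tested. The secondary genes varied widely in this gate and none passed in either genotype: Camp, at 3433, 2339, 1056 and 538.2 CPM in WT mice with vehicle and 766.4, 1040, 841.0 and 132.1 with IL1b, gave -1.39 ± 0.63 (adjusted p = 0.12).

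In the GP gate Ctsg fell again in both genotypes. It stood at 3437, 3802, 2758 and 2695 CPM in WT mice with vehicle and at 2324, 2248, 1579 and 1604 with IL1b, and at 2968, 3295, 4274 and 3421 against 2320, 1654, 2934 and 2695 in Tet2-KO mice. The groups did not overlap, and Ctsg fell by 0.71 ± 0.16 in WT (adjusted p = 0.0059), against 0.54 ± 0.16 in the Tet2-KO genotype (adjusted p = 0.017). Without Tet2-KO vehicle mouse 3 or Tet2-KO IL1b mouse 2 the second call was lost (adjusted p up to 0.0752), and both calls were lost under a hashtag ratio rule and with pools as replicates (adjusted p up to 0.117 and 0.141). Elane (-0.39 and -0.21) and Prtn3 (-0.39 and -0.37) did not pass in this gate.

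Camp also fell in the GP gate of WT mice, by 2.88 ± 0.77 (adjusted p = 0.0165), so that 2 of 10 members fell where 7.79% of all genes fell. Its levels were 358.8, 3057, 364.9 and 68.6 CPM with vehicle and 131.3, 161.5, 164.4 and 10.1 with IL1b, and the groups overlapped. The high value was that of WT vehicle mouse 2, and without it Camp gave -1.11 and did not pass (adjusted p = 0.253), nor did it with gates after thinning, no exclusion of other lineages or at least 1500 genes per cell. Few cells carried these levels: as many secondary UMIs as in all other cells together, or more, lay in 2 of 75 cells in WT vehicle mouse 2, 2 of 169 in mouse 1 and 1 of 174 in mouse 3. The summed Neut marker list was highest in that mouse, with 3429 to 14803 CPM over its group, and its part in the result was not tested.

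In Tet2-KO mice Lcn2 rose in the GP gate with IL1b, by 1.64 ± 0.47 (adjusted p = 0.015). Its levels were 21.7, 19.6, 28.3 and 20.6 CPM with vehicle and 59.1, 23.4, 92.9 and 104.4 with IL1b, with an overlap at 1 mouse. Of 10 members tested, Lcn2 was the 1 that rose, where 10.4% of all genes rose, and Ctsg the 1 that fell, where 12.0% fell. Both counts are near the shares over all genes. Lcn2 gave 1.12 ± 0.47 in WT mice (adjusted p = 0.13), and without Tet2-KO IL1b mouse 4 its call was lost (adjusted p = 0.0542), as it was under DESeq2, a hashtag ratio rule, pools as replicates and gates after thinning.

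**Figure D4:**
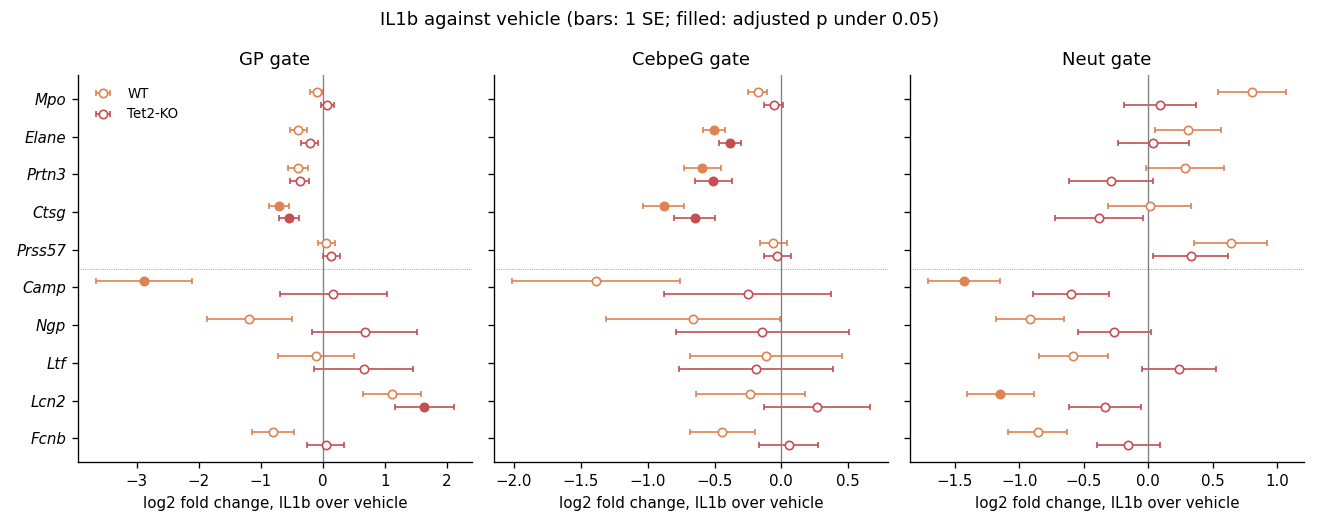
Log2 fold change of IL1b over vehicle (x axis) for the 10 members (y axis) in the GP, CebpeG and Neut gates, in WT and Tet2-KO mice, with bars of 1 SE and filled points where the adjusted p was under 0.05. Elane, Prtn3 and Ctsg lie left of 0 in both genotypes in the CebpeG gate, and Camp and Lcn2 are filled in the Neut gate in WT mice alone, where the difference between genotypes did not pass.

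Among Neut-gate cells, 2 of the 5 secondary genes were lower with IL1b in WT mice. Camp stood at 46927, 51796, 42382 and 43732 CPM with vehicle and at 15038, 31133, 16128 and 6373 with IL1b, without overlap, and fell by 1.43 ± 0.28 (adjusted p = 0.014). Lcn2 stood at 8981, 9814, 8375 and 10084 CPM with vehicle and at 3712, 7651, 3491 and 1925 with IL1b, without overlap, and fell by 1.14 ± 0.26 (adjusted p = 0.028). Mouse 4 with IL1b, with 36 cells, was the lowest and mouse 2 the highest of its group for both genes.

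The other secondary genes were lower on average and did not pass: Fcnb gave -0.86 ± 0.23 (adjusted p = 0.056, groups without overlap), Ngp -0.91 ± 0.26 (adjusted p = 0.080) and Ltf -0.58 ± 0.27 (adjusted p = 0.30). The primary genes ran from 0.01 (Ctsg) to 0.80 (Mpo, adjusted p = 0.13). So 2 of 10 members fell in WT mice, where 1.00% of 6179 genes fell. In Tet2-KO mice 0 of 10 passed in either direction (0 also at an unadjusted p under 0.05, as were 14.5% of genes), where 0.0647% of genes did, and Camp, at 30100, 20779 and 36262 CPM with vehicle and 16297, 23432, 20865 and 16032 with IL1b, gave -0.60 ± 0.30.

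Markers moved with this result. The summed Neut list, led by S100a8, ran from 291523 to 324099 CPM in WT mice with vehicle and from 88871 to 307495 with IL1b, with all 10 of its genes read in each group. The lymphoid list of 8 genes ran from 22.4 to 179.0 CPM with vehicle, where Cd79a and Mzb1 were at 0, and from 80.1 to 4066 with IL1b, and Jchain made up 97.2% of it in the highest mouse, mouse 4. The part of either list in the result was not tested. The calls of Camp and Lcn2 were lost when cells were gated after thinning (adjusted p = 0.105 and 0.134) or with no exclusion of other lineages (0.135 and 0.251), and that of Lcn2 also with at least 1500 genes per cell (0.154). Without WT vehicle mouse 2 or WT IL1b mouse 3 the call of Camp was lost, and that of Lcn2 without any 1 of 7 of the 8 WT mice, all but IL1b mouse 2. Cells with more secondary than primary UMIs made up 84.2%, 82.5%, 85.5% and 85.4% of this gate in the WT mice with vehicle and 69.6%, 86.8%, 73.3% and 58.3% with IL1b, with the lowest in mouse 4 and the highest in mouse 2, as for Camp. Fewer mature cells and less RNA per cell cannot be told apart in the sums.

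**Figure D5:**
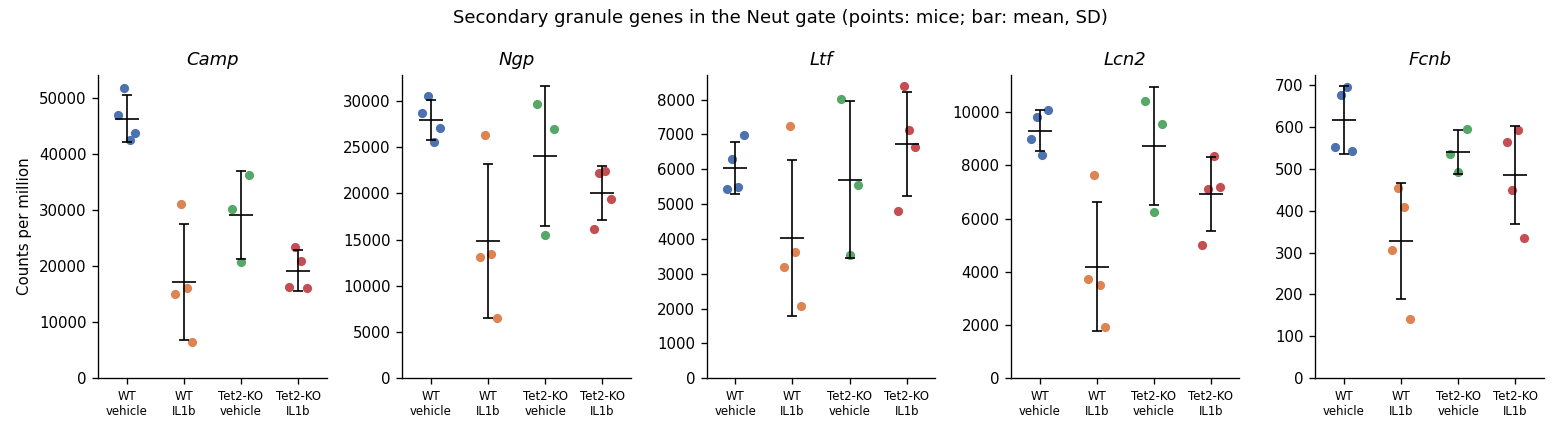
Level of the 5 secondary genes (CPM, y axis from 0) in the Neut gate in the 4 groups (x axis), with 1 point per mouse and bars for the mean and SD (n = 4, and 3 in Tet2-KO vehicle). WT mice with IL1b lie below WT mice with vehicle without overlap for Camp, Lcn2 and Fcnb, of which Fcnb did not pass the test.

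In the HSC gate 8 members could be tested, and Camp fell with IL1b in WT mice by 2.79 ± 0.81 (adjusted p = 0.049), 1 of 8 where 2.66% of all genes fell. Its levels were 37.7, 12.5, 15.0 and 559.8 CPM with vehicle and 32.2, 52.3, 17.2 and 23.2 with IL1b. Only WT vehicle mouse 4 stood apart, and without it the log2 change was 0.33. In that mouse 1 of 142 cells held 96.2% of the 476 secondary UMIs. The call was kept in 7 of 16 fits that each left out 1 mouse and in 4 of the 9 other alternatives that gave a value. No value to compare came from DESeq2, from at least 1500 genes per cell or from any neutrophil gene as an exclusion. It was lost with DESeq2 size factors, a minimum of 25 cells, no exclusion of other lineages and the pool number as a block, and turned to 1.97 with gates after thinning. In that mouse a list of Neut markers summed to 3948 CPM, the highest of the gate, and its part in the result was not tested. Elane gave 0.90 ± 0.36 in WT (adjusted p = 0.17) and 0.91 ± 0.32 in Tet2-KO mice (adjusted p = 0.064), and 0 of 8 members passed in Tet2-KO mice, where 11.6% of genes passed in either direction (1 member at an unadjusted p under 0.05, as were 26.7% of genes).

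In the MPP gate the 5 primary genes could be tested and 0 passed with IL1b in WT or Tet2-KO mice, where 1.88% and 2.28% of genes passed in either direction (2 and 1 members at an unadjusted p under 0.05, as were 13.4% and 17.8% of genes). In the MyP gate 4 members could be tested in WT mice alone, since 1 Tet2-KO mouse with IL1b had enough cells, and 0 passed where 1.71% of genes did (0 at an unadjusted p under 0.05, as were 13.8% of genes).

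As a reference for free RNA, Mpo rose in the erythroid gate with IL1b in WT mice, from 41.5, 60.7, 49.6 and 39.9 CPM to 78.5, 118.5, 63.4 and 95.6. This was 0.92 ± 0.21 on the log2 scale (adjusted p = 0.0038), 1 of 9 members tested where 5.89% of genes rose. Elane, Prtn3 and Ctsg gave 0.65 ± 0.23, 0.59 ± 0.30 and 0.69 ± 0.34 there in WT and 0.56 ± 0.20, 0.02 ± 0.26 and -0.13 ± 0.28 in Tet2-KO mice, none passing. The 4 secondary genes tested there had median log2 changes of 0.88 in WT and 1.07 in Tet2-KO mice, with 0 called. The part of free RNA in the changes of the other gates was not tested.

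In the edgeR fits reported here no member passed between the genotypes, though some alternatives made calls: up to 10 with vehicle and 11 with IL1b when low counts were not filtered, up to 2 and 3 when 1 mouse was left out, and 5 and 13 with mice 3 and 4 alone, where each group is 1 library and library and genotype cannot be told apart. With vehicle, 0 of 47 tests of a member in a gate passed (16 at an unadjusted p under 0.05, as were 4.25% of all such tests of a gene in a gate, and 0 by DESeq2), where 0.00% of genes passed in the HSC, MPP, MyP, GP and Neut gates and 0.0104% in the CebpeG gate. With IL1b, 0 of 43 passed (10 at an unadjusted p under 0.05, as were 8.15% of all tests, and 0 by DESeq2), where 0.00% of genes passed in the HSC and MPP gates, 0.0679% in the GP gate, 0.187% in the CebpeG gate and 0.0971% in the Neut gate. The nearest was Fcnb in the CebpeG gate with IL1b, at 88.5, 89.0, 110.2 and 76.9 CPM in WT and 155.0, 226.4, 195.4 and 181.4 in Tet2-KO mice. These groups did not overlap and gave 1.03 ± 0.23 (adjusted p = 0.055), and passed with the pool number as a block (adjusted p = 0.030).

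In the same gate and treatment Elane gave 0.33 ± 0.08 (adjusted p = 0.14) and Mpo 0.21 ± 0.07 (adjusted p = 0.36) in Tet2-KO over WT mice, both without overlap of the groups. With vehicle Camp gave -2.17 ± 0.65 (adjusted p = 0.89), and Elane, whose groups did not overlap, gave 0.22 ± 0.08 (adjusted p = 0.95).

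The effect of IL1b was not shown to differ between the genotypes over all mice, and Prtn3 and Ctsg in the CebpeG gate were called with mice 3 and 4 alone. In the test of the interaction 0 of 43 passed (6 at an unadjusted p under 0.05, as were 4.56% of all tests, and 0 by DESeq2), with 0.00% of all genes in the HSC, MPP, GP, CebpeG and Neut gates. In the Neut gate the differences of the effects, Tet2-KO minus WT, were 0.83 ± 0.41 for Camp, 0.81 ± 0.38 for Lcn2, 0.82 ± 0.39 for Ltf, 0.70 ± 0.34 for Fcnb and 0.65 ± 0.39 for Ngp (adjusted p = 0.90 for each). For Elane, Prtn3 and Ctsg in the CebpeG gate they were 0.12 ± 0.12, 0.08 ± 0.19 and 0.23 ± 0.22.

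The share of cells in each gate gave no test that passed. Over 24 exact two-sided permutation tests of 4 against 4 mice, 1 had a p under 0.05: the GP gate held 9.38% ± 1.43 of Tet2-KO cells with IL1b and 5.87% ± 1.07 with vehicle (p = 0.0286, the smallest these numbers allow, adjusted p = 0.392). A single test at that p could not pass when adjusted over 24.

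Other granule and processing genes were read from lists beside the members. The alternatives, such as pools as replicates, were run for the members alone. How the calls of list genes, here and below, depend on the processing was therefore not tested. Of 11 genes that load, process or line primary granules, 2 fell and 1 rose in the CebpeG gate with IL1b in WT mice, and 3 fell and 1 rose in Tet2-KO mice. Over all genes 13.5% fell and 9.25% rose in WT and 16.7% fell and 13.6% rose in Tet2-KO mice, and the list had medians of 0.06 and -0.03 against 0.03 and 0.02 over all genes. Nkg7, a membrane protein of cytotoxic and myeloid granules, fell by 0.73 ± 0.10 and 0.60 ± 0.10. Cd63, a membrane protein of primary granules, fell by 0.68 ± 0.10 and 0.30 ± 0.09. Ctsc, the protease that activates the serine proteases of the primary set, fell in Tet2-KO mice by 0.48 ± 0.13, and Lamp1, a lysosomal membrane protein, rose by 0.39 ± 0.10 and 0.30 ± 0.09.

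Of 19 other genes listed with the secondary and tertiary granules, not all of them granule cargo, 12 could be tested in the CebpeG gate. There 1 fell in each genotype, where 13.5% and 16.7% of all genes fell: Cyba, a subunit of the NADPH oxidase, by 0.70 ± 0.15 in WT, and Hp, haptoglobin, by 0.45 ± 0.12 in Tet2-KO mice. In the Neut gate 16 could be tested, and Lyz2 (lysozyme), Cyba and S100a9 fell in WT mice by 1.11 ± 0.26, 1.04 ± 0.21 and 0.99 ± 0.25, where 1.00% of all genes fell. Lyz2 and S100a9 are also on the Neut marker list given above, whose part was not tested. In Tet2-KO mice 0 of 16 passed (median 0.11), where 0.0647% of all genes passed in either direction. Between the genotypes with IL1b, 1 of these 12 genes was called in the CebpeG gate, against 0.187% of all genes, and 1 of 11 in the GP gate, against 0.0679%. Both calls were of Anxa1, which encodes annexin A1 and was higher in Tet2-KO mice by 0.84 ± 0.13 (adjusted p = 0.0048) and 0.73 ± 0.14 (adjusted p = 0.042). Of the 11 primary loading and processing genes, Cd63 was the 1 called in this comparison in the CebpeG gate, higher in Tet2-KO mice by 0.45 ± 0.09 (adjusted p = 0.045), and 0 were called in the GP gate.

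Of 12 regulators of granulocyte genes, 10 could be tested in the CebpeG gate. In WT mice 1 rose and 1 fell, near the 9.25% and 13.5% of all genes that did. In Tet2-KO mice 3 rose and 2 fell, against 13.6% and 16.7% of all genes. Spi1, which encodes PU.1, fell with IL1b by 0.43 ± 0.09 in WT and 0.31 ± 0.08 in Tet2-KO mice. Myb, which maintains immature progenitors, rose by 0.35 ± 0.10 and 0.41 ± 0.10. In Tet2-KO mice Irf8, a factor of the monocyte branch, fell by 0.95 ± 0.24 and Per3 rose by 0.59 ± 0.17. In the Neut gate 2 of 10 fell in WT mice, where 1.00% of all genes fell: Cebpe and Spi1, by 0.83 ± 0.20 and 0.67 ± 0.17, beside the shift of the Neut marker list given above, whose part was not tested. In Tet2-KO mice 0 of 10 passed, where 0.0647% of all genes passed in either direction. In the GP gate of WT mice 4 of 11 tested genes of the secondary and tertiary list fell with IL1b (7.79% of all genes fell) and 0 rose, among them S100a8, which fell by 1.37 ± 0.34. In Tet2-KO mice 2 rose (10.4% of all genes rose) and 0 fell. S100a8 leads the Neut marker list, which was highest in WT vehicle mouse 2 in this gate, and the part of that mouse in these falls was not tested. Of 9 regulators tested in this gate, 2 rose in WT mice, where 5.15% of all genes rose. In Tet2-KO mice 2 rose and 1 fell, where 10.4% of all genes rose and 12.0% fell. Myb rose in both (0.45 ± 0.11 and 0.48 ± 0.11). Gfi1, a repressor needed for granulocyte formation, rose in WT mice by 0.68 ± 0.18 and gave 0.36 ± 0.16 in Tet2-KO mice (adjusted p = 0.12), where Per3 rose by 0.84 ± 0.20 and Irf8 fell by 0.57 ± 0.20.

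Across the 83 sums of a mouse in a gate, the members formed 2 groups by Pearson correlation of log2(CPM + 1), given as a description since sums of a mouse share its library and depth. The primary genes correlated with each other at 0.881 to 0.967 and the secondary genes at 0.745 to 0.963. Fcnb lay between, at 0.680 to 0.849 with the primary and 0.745 to 0.858 with the other secondary genes. The genes most like the primary mean were Gpx1 (0.949), Ms4a3 (0.941, used to set the GP gate), Sec61b, Cst7 and Plac8, and those most like the secondary mean were S100a9 (0.984), S100a8 (0.973), Chil3 (0.965), Cd177 (0.961, used to set the Neut gate) and Pilra (0.961).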

How the data were processed

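Droplet 3′ single-cell RNA and hashtag libraries were made from Lin- bone marrow of 16 mice in 8 pools. The authors aligned reads to GRCm38 with Cell Ranger (3.1.0 in the submitters' processing notes, which also name Seurat 3.2.3) and deposited unnormalized UMI counts per gene, hashtag and barcode. Hashtag counts assigned cells to mice (HTODemux, Seurat 5.3.0), and doublets and unassigned cells were left out. UMIs were summed per mouse and gate (at least 10 cells) and tested with edgeR 4.0.16 (quasi-likelihood, TMM, filterByExpr, Benjamini-Hochberg threshold 0.05 over all genes tested), with mouse as a block between gates. Nothing says that the mice of a group differ in litter or cage, and mice of a pool share a library. Scripts were tested on simulated data (R 4.3.3). DESeq2 1.42.0 and 11 other settings, and leaving out each mouse, were alternatives, reported for the members alone. All members that passed the filter were tested in each comparison, but not all were named. List genes were drawn from the up to 4 of lowest adjusted p per comparison, gate and list. The members, lists and gates were chosen with earlier results of these data known.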

Additional observations from a re-analysis of the deposited data

Results flagged for a closer look

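In 166 groups of 4 mice, 18 had a highest or lowest value that stood apart by Dixon's gap test. Chance gives this in about 1 group in 20 where values are normal and groups independent. In the HSC gate these were Mpo in Tet2-KO vehicle mouse 2 (196.8 CPM, the lowest), Elane in WT IL1b mouse 4 (370.4), Ctsg in WT vehicle mouse 1 (326.4), Camp and Ngp in WT vehicle mouse 4 (559.8 and 317.8), Camp in Tet2-KO IL1b mouse 1 (7.93, the lowest), Ltf in Tet2-KO vehicle mouse 1 (18.2), Fcnb in WT IL1b mouse 4 (34.7) and Fcnb in Tet2-KO vehicle mouse 3 (1.78). In the GP gate they were Elane in Tet2-KO IL1b mouse 2 (4832 CPM, the lowest) and Camp and Lcn2 in WT vehicle mouse 2 (3057 and 132.1). In the CebpeG gate they were Elane in Tet2-KO vehicle mouse 3 (12412 CPM) and Ngp and Ltf in Tet2-KO IL1b mouse 2 (643.1 and 106.9). In the Neut gate they were Prtn3 and Ctsg in WT IL1b mouse 1 (3439 and 1209 CPM), and the Neut gate's share of assigned cells in WT vehicle mouse 2 (8.17%). Genes of a mouse are not independent, and Fcnb in Tet2-KO vehicle mouse 3 was flagged beside values of 0. The 18 therefore cannot be set against the rate of chance.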

How the results depend on the processing

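Counts of members called over the 6 gates were 8 for IL1b in WT (20 with no filter on low counts, 14 with a hashtag ratio rule of 3), 5 for IL1b in Tet2-KO mice (8 with no filter, 1 with pools as replicates, 10 with gates after thinning, 11 with no exclusion of other lineages), 0 for genotype with vehicle (10 with no filter, 2 with the ratio rule, 3 after thinning), 0 for genotype with IL1b (11 with no filter, 2 after thinning, and 1 each with no exclusion, with at least 1500 genes per cell, with the replicate block and with any neutrophil gene excluding a cell from the earlier gates, an alternative chosen after seeing the data) and 0 for the interaction (4 with no filter). With mice 3 and 4 alone, chosen after the hashtag counts were seen, the counts were 14, 8, 5, 13 and 2, with 1 library per group. Leaving out 1 mouse gave 6 to 11, 4 to 7, 0 to 2, 0 to 3 and 0 to 0, and 30 to 32 of the 32 calls between gates, which ranged from 28 to 40 elsewhere. Camp in the HSC gate of WT mice turned to 1.97 after thinning, and ranged from -3.29 to 0.33 with 1 mouse left out, the last without WT vehicle mouse 4. The log2 ratio in the Neut gate moved to 1.53 over all mice at 1500 genes (2.26 in WT vehicle, 1.24 in Tet2-KO vehicle, 1.47 in Tet2-KO IL1b), to 4.56 in WT vehicle with the ratio rule and to 1.82 in Tet2-KO IL1b with no exclusion. In the CebpeG gate any neutrophil gene as an exclusion moved it to -6.11 over all mice (-5.40 in WT vehicle, -6.26 in WT IL1b, -6.13 in Tet2-KO IL1b), thinning to -2.89 in WT IL1b and -3.76 in Tet2-KO IL1b, and 1500 genes to -5.89 in WT vehicle, and in the MyP gate a minimum of 25 cells to -9.13, over 2 mice of which 1 had no secondary UMI, so that the added 1 CPM set its ratio. The sign of the ratio held in each. The cause of these shifts was not tested. With the pool number as a replicate block, Camp in the HSC gate of WT mice lost its call (adjusted p = 0.0725) and Fcnb in the CebpeG gate with IL1b passed between genotypes (1.05, adjusted p = 0.030). Same-numbered pools deviated together at correlations of -0.117 to 0.104, which show no pairing over all genes. Hashtag separation did follow the pool number in each group, so these values cannot decide whether the number marks a shared difference. With a minimum of 25 cells the groups could not be compared in the MyP gate. Few cells limit the HSC, MPP and MyP gates, where secondary genes were near the floor.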
